A study of Bos taurus with 4 samples.

Results

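ZNF genes, the zinc finger genes named ZNF followed by a number, are the subject of this report. Members were all array probes whose platform gene symbol began with ZNF and a digit. There were 353 such probes for 258 genes, of 15229 genes with a symbol on the array. For 63 members there were several probes, and the probe with the highest mean raw intensity stood for the gene. RefSeq (assembly ARS-UCD2.0) still uses 244 of the member symbols and lists 14 as synonyms of another name. Among the renamed are ZNF295, now ZBTB21, ZNF642, now ZFP69, ZNF259, now ZPR1, ZNF187, now ZSCAN26, and ZNF498, now ZSCAN25.

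The samples were bovine morulae (Bos taurus) made by in vitro fertilization and grown in synthetic oviductal fluid. In the high glucose group (HG) this medium held 5 mM glucose from day 0 to day 3. In the control group (CTL) it held 0.2 mM glucose over the same days. From then to day 5 both groups shared control medium, and collection was at 120 h after fertilization, so the morulae had left high glucose before collection. Each of 4 two-colour EmbryoGENE arrays, areas of 1 slide, carried RNA of an HG pool of 10 morulae and a CTL pool of 10 morulae. Arrays 1 and 2 had HG in Cy5, and arrays 3 and 4 had it in Cy3. The comparison asks whether early exposure to high glucose left a difference in transcripts at the morula stage. Whether the pools stem from separate fertilizations is not stated in the labels, so p-values measure the spread between these pools. In pooled embryos, fewer cells of a type and less RNA per cell cannot be told apart.

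Zinc finger proteins of the C2H2 kind bind DNA, and some bind RNA or protein, through repeated loops each held by a zinc ion. Many ZNF proteins carry a KRAB domain, which recruits TRIM28 and through it the histone methyltransferase SETDB1, HP1 proteins and histone deacetylases, and so silences the bound site. In the early mammalian embryo this route is known for silencing transposable elements and protecting imprinted marks while the rest of the genome is reprogrammed. Other ZNF genes encode general cofactors, spindle proteins, ribosome assembly factors or RNA-binding proteins, so the shared name is not a shared function.

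Values are log2 ratios of HG over CTL after background correction and loess, with mean ± SD over the 4 arrays (n = 4). Signals are normalised log2 intensities of one channel. Above background means a raw intensity over the mean plus 2 SD of the negative spots on that array, in that channel. A gene was tested where either group met this on all 4 arrays. By this rule 151 members, 58.5%, were tested, against 56.9% of all genes (8661). Both groups were above background on all 4 arrays for 127 members, and for 7466 of all genes. For 18 members only HG was above on all 4 arrays, and for 6 only CTL was. How all genes divide between HG only and CTL only was not counted, so this split is no result about the members. A further 55 members were above background on some arrays, and 52 on none. ZNF274 and ZNF445, KRAB proteins known in human and mouse for heterochromatin and for imprints, were among the 52, with ZNF202, ZNF423, ZNF703 and ZNF750. ZNF143, ZNF335, ZNF346, ZNF384, ZNF593, ZNF687 and ZNF10 were above background on some arrays and were not tested. Nothing is said of the direction of genes not tested.

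No single ZNF gene passed the adjusted threshold, while more members had a mean above 0 than below, a description with no test of the difference from other genes. The limma fit called 0 of 151 members at an adjusted p under 0.05, as it called 0 of 8661 genes (0%). The smallest adjusted p of a member was 0.772. At an unadjusted p under 0.05, 8 members (5.3%) were higher in HG, against 2.34% of all genes tested. At the same level 0 members were lower, against 4.03% of all genes tested. Without array 1, 2, 3 or 4 these counts were 4, 2, 14 and 3 members higher and 3, 1, 4 and 0 lower. The higher members made up 2.65%, 1.32%, 9.27% and 1.99%, against 3.22%, 0.843%, 3.93% and 1.07% of all genes. The lower members made up 1.99%, 0.662%, 2.65% and 0%, against 4.65%, 2.18%, 5.72% and 1.89%. The excess of higher members was thus not present without array 1. The mean ratio was above 0 for 90 members, 59.6%, against 45.7% of all genes. The tested members include 18 that passed by HG alone and 6 by CTL alone, so the filter itself can add to this share. With both groups required above background on all 4 arrays it was 57.5% of 127 members, against 43.9% of all genes. With no filter it was 51.6% of 258 members, against 48.1%, a smaller gap. The members' median was 0.0542, with quartiles of -0.1272 and 0.2505, and the median of all genes was -0.0252. Without array 1, 54.3% of the members and 50.4% of all genes had a mean above 0. This shift is small beside the spread of a single member over the arrays, whose SD had a median of 0.463.

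**Figure D1:**
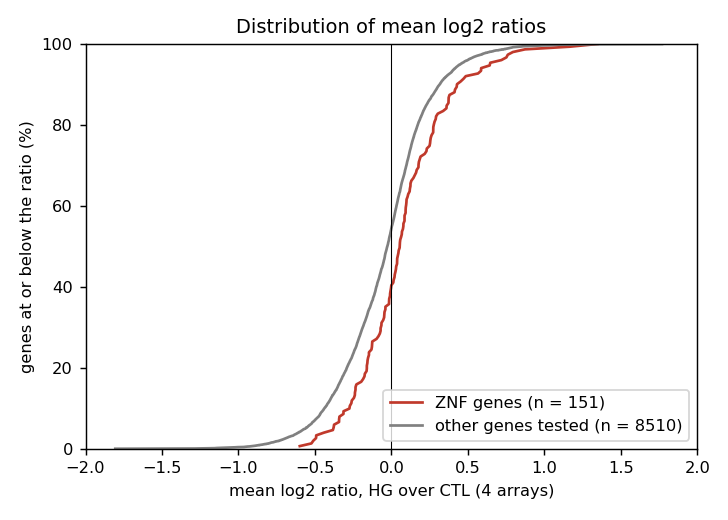
Cumulative share of genes (percent) against the mean log2 ratio of HG over CTL over 4 arrays, for the 151 ZNF genes tested and the other 8510 genes tested. The ZNF curve lies to the right of the other over most of its range, and 40.4% of the ZNF genes lie below 0 against 54.3% of all genes tested.

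Agreement in direction across arrays showed the same imbalance. All 4 arrays gave a higher HG value for 14 members (9.27%), against 5.98% of all genes. All 4 gave a lower HG value for 3 members (1.99%), against 8.15%. With a mean change of at least 1.5-fold as well, 6 members (3.97%) were higher, against 1.48% of all genes, and 0 were lower, against 2.56%. By the mean alone, 11 members (7.28%) were at least 1.5-fold higher, against 2.74% of all genes, and 1 (0.662%) was at least 1.5-fold lower, against 4.45%. Without array 1 the higher count was 7 (4.64%), against 5.76% of all genes, so the excess was not present there. With arrays 2 and 4 alone the higher count was 14 (9.27%), against 6.05% of all genes. Without array 3 it was 17 (11.3%), against 4.98%. The lower count was 1 (0.662%) without array 1, against 5.4% of all genes, and 5 (3.31%) without array 2, against 6.54%. It was 8 (5.3%) without array 3, against 10.6%, and 2 (1.32%) without array 4, against 6.54%. ZNF280D at 0.59 and ZNF24 at 0.59 were the last inside the 1.5-fold limit, which is 0.585 on the log2 scale. ZNF79 at 0.57 was the first outside it.

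**Figure D2:**
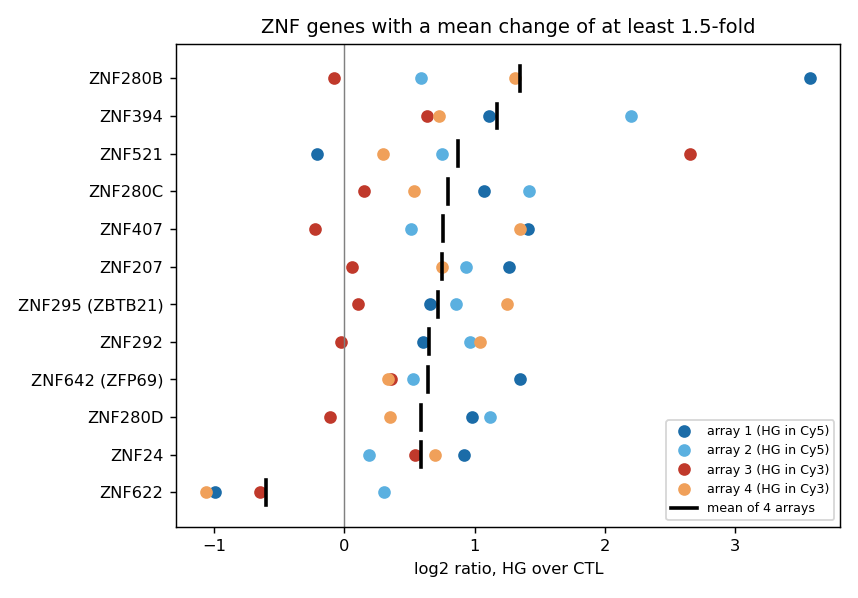
Log2 ratio of HG over CTL on each array (points, coloured by array and dye) and the mean of 4 arrays (black bar) for the 12 ZNF genes with a mean change of at least 1.5-fold. Array 3 gives the point nearest to 0 for most of the higher genes, ZNF521 is highest on array 3, and ZNF622 is the gene on the lower side.

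ZNF394, a SCAN and KRAB protein reported in human cells to repress AP-1-driven transcription, had the smallest p of all members. Its HG signals were 14.19, 14.58, 14.19 and 14.37 on arrays 1 to 4, against CTL signals of 13.08, 12.38, 13.55 and 13.64. The groups did not overlap, and the lowest HG pool lay above the highest CTL pool. How many of all genes tested show no overlap was not counted. Its absence, here or in genes below, therefore does not set a gene apart. The ratios were 1.11, 2.20, 0.64 and 0.73, and their mean was 1.17 ± 0.72, or 2.25-fold (limma, adjusted p = 0.772).

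ZNF207, known in human as BuGZ, binds microtubules and the checkpoint protein BUB3 and helps chromosomes align on the spindle. HG signals were 13.59, 13.71, 12.66 and 13.38, against 12.33, 12.78, 12.61 and 12.63 in CTL. The HG pools of arrays 1, 2 and 4 lay well above every CTL pool, while the HG pool of array 3 lay within the CTL range. The mean ratio was 0.75 ± 0.51, or 1.68-fold (limma, adjusted p = 0.772). A second, dimmer ZNF207 probe gave -0.02, so the probes of this gene disagree.

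The ZNF280 genes, related to the fly insulator protein suppressor of Hairy-wing, had 3 tested members, each with a mean at least 1.5-fold higher in HG. ZNF280B had HG signals of 14.56, 14.53, 13.42 and 14.61, against 10.99, 13.95, 13.50 and 13.30 in CTL. The CTL pool of array 1 stands far below the other 7 pools and gives that array a ratio of 3.57. The ratios of the other arrays were 0.58, -0.08 and 1.31, and the mean was 1.35 ± 1.59 (limma, adjusted p = 0.804). ZNF280C, which in human cells restrains DNA end resection at breaks, had HG signals of 9.69, 9.32, 8.66 and 9.44, against 8.62, 7.91, 8.51 and 8.90 in CTL. HG was higher within each array, though the groups overlap. Its mean ratio was 0.79 ± 0.56, or 1.73-fold (limma, adjusted p = 0.772). ZNF280D had ratios of 0.98, 1.11, -0.11 and 0.35, with a mean of 0.59 ± 0.57 (limma, adjusted p = 0.804). In all 3 genes array 3 gave the value nearest to 0. ZNF280A was not tested, since its probe was not above background on all arrays of either group.

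**Figure D3:**
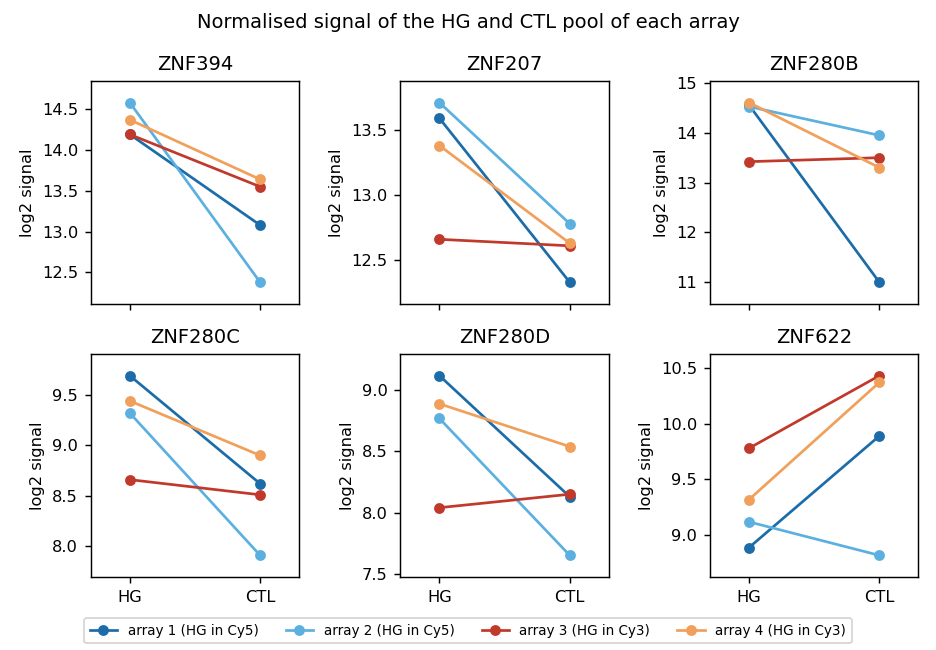
Normalised log2 signal of the HG pool (left) and the CTL pool (right) of each array for 6 ZNF genes, with a line joining the pools of 1 array. Each panel has its own axis. ZNF394 and ZNF280C lines all slope down to CTL, ZNF207, ZNF280B and ZNF280D are flat on array 3, and ZNF622 slopes up on 3 of 4 arrays.

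The other members with the smallest p on the higher side include the following. ZNF24, a SCAN protein that represses VEGFA in human cells and is needed for myelination in mice, had HG signals of 11.12, 10.22, 10.56 and 10.32, against 10.20, 10.02, 10.02 and 9.63 in CTL. Every HG pool was above every CTL pool, by a narrow gap. The mean ratio was 0.59 ± 0.31 (limma, adjusted p = 0.772). ZNF295 (ZBTB21), a BTB-domain protein, had HG signals of 9.07, 9.43, 8.89 and 9.33, against 8.41, 8.57, 8.78 and 8.08 in CTL, again without overlap. The mean ratio was 0.72 ± 0.48, and a second probe gave 0.95. ZNF642 (ZFP69), a KRAB and SCAN protein linked to diabetes in obese mice, had ratios of 1.35, 0.53, 0.35 and 0.33, a mean of 0.64 ± 0.48. ZNF79 had ratios of 0.92, 0.78, 0.53 and 0.03, a mean of 0.57 ± 0.39 (limma, adjusted p = 0.772), and its second probe gave 0.20.

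ZNF292, a very large protein in which human variants cause a neurodevelopmental disorder, had ratios of 0.60, 0.96, -0.02 and 1.04, a mean of 0.65 ± 0.48. ZNF407, which in mouse adipocytes promotes expression of the insulin-responsive glucose transporter, had ratios of 1.41, 0.51, -0.22 and 1.35, a mean of 0.76 ± 0.77 (limma, adjusted p = 0.774). Both were higher in HG on 3 arrays and slightly lower on array 3. ZNF521, a cofactor of mouse stromal and blood progenitor cells, ran the other way. Its HG signals were 7.60, 7.45, 10.00 and 8.29, against 7.81, 6.70, 7.35 and 7.99 in CTL, and CTL was above background on 3 of 4 arrays. One pool, HG on array 3 with a ratio of 2.65, carries its mean of 0.87 ± 1.25.

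Of the other members with a higher value on all 4 arrays, ZNF74 had a mean of 0.49 ± 0.43, ZNF19 of 0.47 ± 0.43, ZNF142 of 0.38 ± 0.22 and ZNF34 of 0.29 ± 0.20. ZNF148, known as ZBP-89 and a regulator of cell growth genes, had ratios of 0.14, 0.03, 0.62 and 0.22 and a mean of 0.25 ± 0.26. ZNF174 at 0.12 ± 0.12 and ZNF518A at 0.09 ± 0.08 were higher on all 4 arrays by less than 1.1-fold on average. None of these genes passed the adjusted threshold.

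On the lower side the changes were smaller. ZNF622, which in human cells binds the maturing large ribosomal subunit, had HG signals of 8.89, 9.12, 9.78 and 9.32, against 9.89, 8.82, 10.43 and 10.37 in CTL. HG was lower on arrays 1, 3 and 4 and higher on array 2, and the groups overlap. The mean ratio was -0.60 ± 0.63 (limma, adjusted p = 0.805). ZNF566 had ratios of -0.19, -0.64, -0.52 and -0.19, ZNF511 of -0.34, -0.08, -0.60 and -0.36, and ZNF740 of -0.23, -0.20, -0.45 and -0.07. These are the 3 members lower on every array, with means of -0.38, -0.34 and -0.24. Another ZNF566 probe, with a spot marked as unusable on array 3, gave 1.34, 0.78 and 0.68 on the other arrays, so the direction of ZNF566 is uncertain. ZNF526 at -0.49 ± 0.65, ZNF200 at -0.44 ± 0.47, ZNF512 at -0.38 ± 0.43, ZNF227 at -0.28 ± 0.25 and ZNF329 at -0.24 ± 0.21 are the other lower members with the smallest p, and each had at least 1 array above 0. ZNF187 (ZSCAN26) at -0.52 ± 1.08 and ZNF574 at -0.38 ± 1.17 owe their means to array 1, with -2.14 and -2.11 there. Other ZNF187 probes above background gave means of 0.17 and -0.10, so the probes of ZNF187 disagree.

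None of the tested genes of the fixed role list passed the adjusted threshold. ZNF281, which binds and restrains the Nanog gene in mouse embryonic stem cells, had HG signals of 12.63, 12.61, 12.71 and 12.78, against 12.30, 12.75, 12.86 and 12.77 in CTL, a mean ratio of 0.01 ± 0.22. ZNF217, a partner of the CoREST and LSD1 repressors in human cells, had 0.12 ± 0.34. ZNF644, a partner of the methyltransferases G9a and GLP, had -0.13 ± 0.41, with HG above background on 3 of 4 arrays. ZNF638, which in human cells helps silence unintegrated retroviral DNA, had -0.01 ± 0.42. ZNF131, a BTB-domain factor, had -0.02 ± 0.50. ZNF410, an activator of the chromatin remodeller gene CHD4 in human and mouse cells, had 0.26 ± 0.37, and CHD4 itself had -0.11 ± 0.68. ZNF592 and ZNF532, which form a complex with the reader ZMYND8 in human cells, had 0.37 ± 0.63 and 0.11 ± 0.25, and a second ZNF532 probe gave -0.60. ZNF830, needed in the mouse preimplantation embryo, had ratios of 0.30, 0.62, -0.20 and 0.72, a mean of 0.36 ± 0.42.

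Other members of the fixed role list follow. ZNF326, a splicing-linked transcription factor, had -0.31 ± 0.66, and ZNF318, needed in mice for the choice of IgD transcripts in B cells, had -0.25 ± 0.51. ZNF330 had 0.09 ± 0.34 and ZNF639 had 0.29 ± 0.71. ZNF451, a SUMO ligase, had ratios of 1.53, 0.80, -0.90 and 0.25, a mean of 0.42 ± 1.02. The KRAB gene ZNF354A had -0.95, 0.42, 1.02 and 0.54, a mean of 0.26 ± 0.84. For the chosen probes of these 2 genes the values of arrays 1 and 3 had opposite signs and were larger than the mean in size. A second, dimmer ZNF354A probe gave 0.36, -0.08, -0.67 and 0.25, so the probes of ZNF354A disagree on arrays 1 and 3. Of the 36 genes of this list, 21 were above background by the rule for testing.

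Several of the probes with the highest signals also leaned to HG. ZNF93, which in primates represses LINE-1 elements, had HG signals of 13.40, 13.51, 13.12 and 13.40, against 12.57, 13.34, 13.20 and 13.21 in CTL, a mean ratio of 0.27 ± 0.39. ZNF304, a KRAB repressor, had 0.28 ± 0.50. ZNF259 (ZPR1), which binds the survival of motor neuron protein, had -0.17 ± 0.36. When all tested genes were split by mean signal into 3 groups of 2887 genes, 17 of 21 members in the brightest group had a mean above 0, 81%, against 42.5% of all genes there. In the middle group the share was 59.4% of 69 members, against 41.9%, and in the dimmest 52.5% of 61 members, against 52.6%. The members' medians in these groups were 0.2522, 0.0673 and 0.0308 from bright to dim. These shares carry no test, and signal does not rank genes by transcript number, since probes differ in sequence.

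The arrays did not contribute equally. On arrays 1 to 4 the members' medians were 0.1708, 0.0152, -0.0087 and 0.1037, and 65.6%, 53%, 49.7% and 62.9% of the members were higher in HG. Markers of cumulus, granulosa and stromal cells, which can stay attached to in vitro embryos, were displaced on the same arrays. Of 20 such markers 15 were tested, and their medians were -2.02, 0.08, 2.13 and -0.64 on arrays 1 to 4. Their summed signal ranged from 26060 to 204500 in HG and from 44600 to 95230 in CTL. HAS2, PTGS2, GREM1, FSHR and BGN were not above background on all arrays of either group. TIMP1, LUM, VIM, INHBA, STAR, COL1A1, COL1A2, DCN, SPARC and FN1 were above it on every array of both. In HG, 13 of the 15 were lower on array 1 and 2 on array 3. TNFAIP6 and COL1A1 were higher on array 1, at 0.60 and 0.09. CYP19A1 and FN1 were lower on array 3, at -0.42 and -0.63, and on every other array. The ZNF medians were highest on the array where these markers were lowest in HG, and lowest on the array where the markers were highest in HG. Their part in the ZNF shift was not tested. On arrays 2 and 4 alone, 53% of the members had a mean above 0, against 47.8% of all genes, with a median of 0.0268. If array 1 is read with its dyes exchanged, 45.7% of the members and 51% of all genes were above 0, and 5.96% of the members and 8.37% of all genes were at least 1.5-fold higher. With median centring in place of the loess fit, 50.3% of the members and 38.4% of all genes had a mean above 0. Of 12 morula markers, DPPA5 had no symbol on the array, CDH1 was above background on no HG array, and the other 10 were tested. Their median was lower in HG on every array, at -0.14, -0.41, -1.30 and -0.39.

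**Figure D4:**
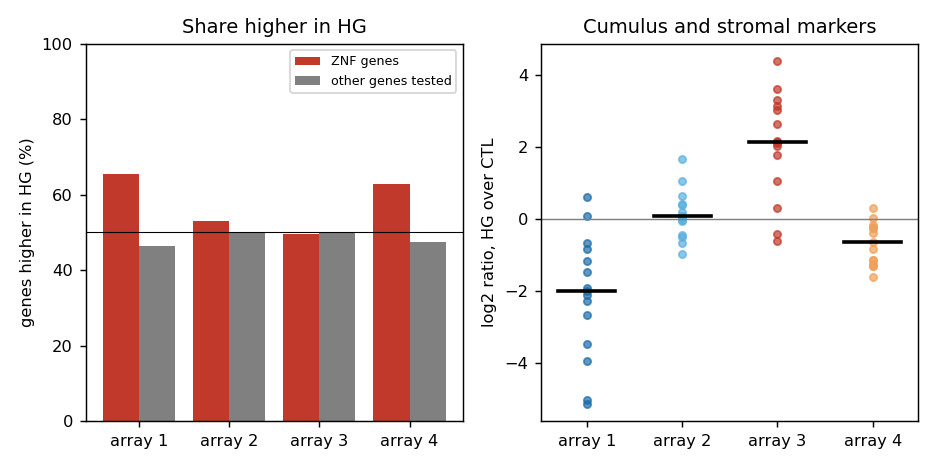
Left, share of ZNF genes and of other genes tested with a log2 ratio above 0 on each array (percent, bars from 0). Right, log2 ratio of HG over CTL of 15 cumulus, granulosa and stromal markers on each array (points) with the median (black bar). The ZNF share is 65.6% on array 1, where the marker median is -2.02, and 49.7% on array 3, where it is 2.13.

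Arrays 1 and 3, of opposite dye orientation per the labels, ran against each other. Across the 151 members their ratios had a Pearson correlation of -0.43, and across all 8661 genes one of -0.50. This is a description across genes of 4 pools, which share those pools' RNA and are not independent. Whether the recorded dyes of array 1 or array 3 are right could not be settled from the files, and an exchange would turn that array's ratios. As labelled, 4 of the 10 morula markers tested, POU5F1, KRT8, CLDN4 and CLDN6, had a ratio below 0 on each array. The rest of that list was mixed. On array 1 only 5 of the 10 were below 0, while KRT18, KLF5 and TFAP2C stood at 0.29, 0.39 and 0.73. NANOG had a mean of 0.47 ± 0.65. Whether these markers bear on the dye records was not tested. The other pairs of arrays had correlations between -0.11 and 0.28 across the members. The most common order of signs among the members was higher on arrays 1, 2 and 4 and lower on array 3, with 26 members (17.2%), against 8.22% of all genes. ZNF385B had ratios of -3.54, 0.29, 1.67 and -0.48, and ZNF219 had -3.08, -0.84, 1.87 and 0.08. Both have the signs of the marker list on arrays 1 and 3, as has ZNF521. ZNF382, a KRAB repressor, had 1.96, 0.01, -0.99 and 0.67, against that pattern. Its other probes gave 1.47 and 2.01 on array 1 and -1.48 and -1.23 on array 3, so 3 probes agree on both arrays. ZNF385B and ZNF219 were chosen after their values were seen.

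**Figure D5:**
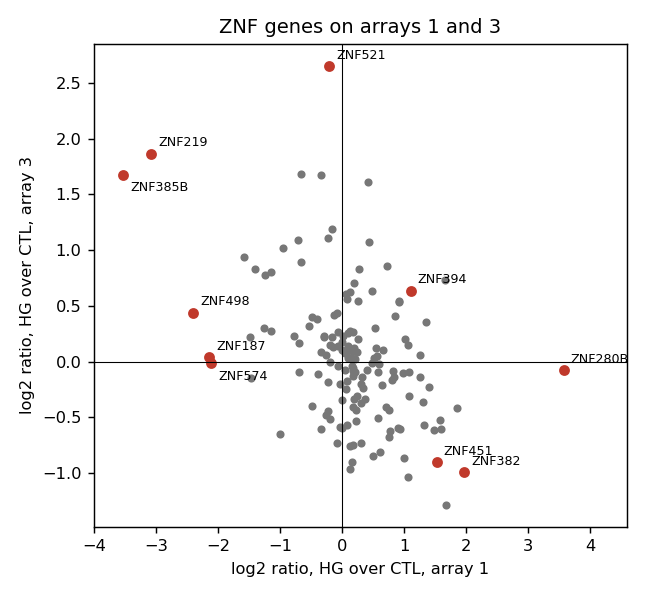
Log2 ratio of HG over CTL on array 1 (horizontal) and array 3 (vertical) for the 151 ZNF genes tested, with some genes named. Points run from upper left (ZNF385B, ZNF219) to lower right (ZNF382, ZNF451), with a correlation of -0.43.

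Probes of the same gene did not always agree. Of 23 members with several probes above background, 11 had all probes in the same direction and 12 did not, with a median gap of 0.2741 between the lowest and highest probe. ZNF genes also lie in clusters of similar copies, whose transcripts a probe may not separate. In the RefSeq gene order, 87 of the 258 members lay in 34 runs of neighbouring members, the longest with 7 genes. Of 20 neighbouring pairs in which both genes were tested, 12 shared the direction of their mean, 5 both higher and 7 both lower. The share among members that are not neighbours was not counted, so this says nothing particular about neighbours. ZNF19 and its neighbour ZNF23 had 0.47 ± 0.43 and 0.43 ± 0.37. A run of ZNF283, ZNF404, ZNF45, ZNF226 and ZNF227 had -0.13, -0.01, -0.01 and -0.28, with ZNF404 not tested. Other runs were mixed in direction, such as ZNF382, ZNF260 and ZNF566 at 0.41, 0.37 and -0.38, and ZNF200 and ZNF263 at -0.44 and 0.27.

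Genes for partners of KRAB proteins and related genes were measured as a fixed list. Not all of them encode corepressors. The list also holds ZFP57, which was not tested, and DPPA3, a morula marker above, with a mean of -0.44. Of 36 listed genes, 34 had a symbol on the array and 26 were tested. Their means were above 0 for 10 and below for 16 (61.5%, against 54.3% of all genes tested), with a median of -0.083. None had an unadjusted p under 0.05 by limma. TRIM28, the KRAB corepressor, had ratios of 0.22, 0.66, -0.23 and 0.46, a mean of 0.28 ± 0.38. SETDB1, the histone H3 lysine methyltransferase it recruits, had 0.20 ± 0.26. RBBP4, a histone chaperone of deacetylase complexes, had -1.23, 0.05, -0.47 and -0.51, a mean of -0.54 ± 0.53 (limma, adjusted p = 0.805). HDAC1, a histone deacetylase, had -0.30 ± 0.21, CBX5, which encodes HP1 alpha, had -0.37 ± 0.51, and the DNA methyltransferase gene DNMT3A had -0.31 ± 0.30.

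Related families gave few measured genes. Of 32 ZBTB genes 15 were tested, 8 higher and 7 lower by their means. Of 9 ZSCAN genes 6 were tested, 4 higher and 2 lower, of 12 genes named ZFP and a digit 8 were tested, 3 higher and 5 lower, and of 4 ZKSCAN genes 1 was tested. The ZFP genes include ZFP36 and its relatives, whose fingers are of another kind and bind RNA. ZSCAN4, known for a burst of expression at genome activation in mouse embryos, had ratios of 0.78, 1.27, 0.03 and 0.77, a mean of 0.71 ± 0.51 or 1.64-fold (limma, adjusted p = 0.772). ZSCAN16 had a mean of 0.52 ± 0.37 (limma, adjusted p = 0.772). Both were chosen after their values were seen.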

How the data were processed

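The deposited scanner files held raw spot intensities, mean and median per spot with local background in Cy3 and Cy5, per the file headers neither corrected nor normalized. A deposited table held the authors' log2 ratios, Cy5 over Cy3. Set against Cy5 over Cy3 ratios computed here from the scanner files after background correction and loess, the deposited ratios correlated at 0.976 to 0.993. Their column medians lay between -0.0052 and 0.0159, and their exact background correction and normalization stay unknown. Per the submitters' processing notes limma was used, with no version given. Per the labels' protocols, RNA was amplified in repeated T7 rounds and labelled chemically on guanine, and repeated amplification can distort levels between genes.

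Mean intensities, less the median local background by normexp (offset 50), were normalized by loess within each array in limma 3.58.1 under R 4.3.3. Control spots had weight 0, and spots marked as ignored (29 to 151 per array) were set to missing, 0 of them among tested members. Ratios, given as HG over CTL for both dye orientations, were fitted with lmFit and eBayes against 0 over 8661 genes, with Benjamini-Hochberg adjustment at 0.05. Signals per channel follow loess and Aquantile scaling. Above background was judged from raw intensities against 151 to 153 negative spots per array. Median raw intensity was 209.6 to 287.1 in Cy3 and 152.9 to 163.4 in Cy5, and the number of arrays, 4, limits the precision. Steps were tested on simulated data.

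Named members were the 10 with the smallest p in each direction, the 10 brightest, those with 1 sign and 1.5-fold change, and a fixed role list, 43 in all. Others are named as examples of a count or as marked. The members and lists were chosen with earlier results of these data known. The planned grouping by protein domain was not run, since no protein sequences were used here.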

Additional observations from a re-analysis of the deposited data

Results flagged for a closer look

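Of 51 results tested for 1 array standing apart, 3 did, and chance alone flags about 1 in 20. The chosen probe of ZNF187 (ZSCAN26) had a ratio of -2.14 on array 1, while the other arrays lay between 0 and 0.04. Its signals on array 1 were 10.41 in HG and 12.55 in CTL, against 7.27 to 7.40 in HG and 7.27 to 7.40 in CTL on the others, so both pools of that array stood apart. Other ZNF187 probes above background gave -0.27 and -0.28 on array 1. ZNF574 had -2.11 on array 1, while the others lay between -0.02 and 0.39, and its CTL signal there was 13.65. HDAC1 had 0.01 on array 4, while the others were all at -0.41. The part of the cumulus and stromal markers in the values of array 1 was not tested.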

How the results depend on the processing

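The count of ZNF genes at an adjusted p under 0.05 was 0 under every alternative, 13 genes of the array passing with arrays 2 and 4 alone. The main fit was already paired, since each array's ratio sets an HG pool against the CTL pool of the same number. The small number of arrays and dim probes limit what could be detected. The cause of the changes below was not tested.

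Genes under an unadjusted p of 0.05, 8 higher in HG and 0 lower, numbered 2 and 2 when median centring replaced loess, 9 and 4 with no filter, 14 and 4 with arrays 2 and 4 alone, 13 and 8 with the sign of array 3 turned, and 4 and 5 with that of array 1 turned. With the median of spot pixels 1 was lower (0.719%, all genes 3.33%). Leaving out each array in turn gave 2 to 14 higher and 0 to 4 lower. As shares these were 1.32 to 9.27% and 0 to 2.65%, against 0.843 to 3.93% and 1.89 to 5.72% of all genes.

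Same-sign counts, 14 higher and 3 lower, were 11 and 6 with median centring, 12 and 6 with median pixels, 16 and 9 with no filter, 12 and 12 with array 1 turned, and 26 and 8 with array 3 turned. With no background correction and with the deposited ratios 2 were lower. Arrays 2 and 4 alone gave 56 and 32, with fewer arrays to match, and leaving out 1 array gave 19 to 40 and 7 to 15. The same counts over all genes were not made for these settings. Whether the imbalance against all genes holds under them is therefore not shown.

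Members at least 1.5-fold higher, 11, were 7 with median centring (4.64%, all genes 1.88%). They were 7 with the mean of the local background, chosen after seeing the data (4.64%, all genes 1.95%). Without 1 array they were 7 to 17, with 7 without array 1 (4.64%, all genes 5.76%) and 17 without array 3 (11.3%, all genes 4.98%). With array 1 turned 5.96% of the members and 8.37% of all genes were at least 1.5-fold higher. Members 1.5-fold lower, 1 (0.662%, all genes 4.45%), were 4 with median centring (2.65%, all genes 6.6%). They were 2 with median pixels (1.44%, all genes 5.46%) and 3 with no filter (1.16%, all genes 2.76%). They were 0 with no background correction, scale normalization, the deposited ratios or the mean local background. With arrays 2 and 4 alone they were 4 (2.65%, all genes 7.26%). With array 3 turned they were 9 (5.96%, all genes 9.28%), and with array 1 turned 3 (1.99%, all genes 3.33%). Without 1 array they were 1 to 8, or 0.662 to 5.3%, against 5.4 to 10.6% of all genes. All 11 higher members stayed above 0 except where 1 was not tested (above background in both groups), 1 was turned with array 3 and 2 with array 1.

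The share of members above 0, 59.6%, was 50.3% with median centring (all genes 38.4%) and 51.6% with no filter (all genes 48.1%). It was 45.7% with array 1 turned (all genes 51%), and 54.3 to 61.6% without 1 array (54.3% without array 1, all genes 50.4%). Their median was -0.0332 with array 1 turned and 0.014 to 0.0943 without 1 array.

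Some single values turned. With arrays 2 and 4 alone, ZNF281 was -0.06, ZNF330 -0.06, ZNF187 0.00, CBX5 0.05, ZNF131 0.28, ZNF638 0.29 and ZNF574 0.31. ZNF131 and ZNF638 were 0.03 and 0.05 with the deposited ratios, 0.12 and 0.02 with median pixels, and 0.00 and 0.01 with scale normalization. ZNF638 was 0.00 with the mean local background, ZNF532 -0.24 over all probes, and ZNF281 -0.06 with median centring and -0.02 with median pixels. With array 1 turned, ZNF410 was -0.02, ZNF642 -0.03, ZNF304 -0.08, ZNF93 -0.14, ZNF281 -0.15, ZNF330 -0.20, ZNF639 -0.34, ZNF451 -0.35, ZNF280B -0.44, ZNF382 -0.57, ZNF638 0.01, CBX5 0.03, RBBP4 0.08, ZNF259 0.10, ZNF526 0.13, ZNF187 0.54 and ZNF574 0.68. With array 3 turned, SETDB1 was -0.02, ZNF148 -0.06, ZNF532 -0.10, ZNF354A -0.25, ZNF521 -0.45, CBX5 0.03, ZNF200 0.04, ZNF318 0.06, ZNF326 0.14, ZNF638 0.28 and ZNF131 0.36. Leaving out each array in turn gave ZNF131 -0.14 to 0.23, ZNF187 -0.71 to 0.01, ZNF217 -0.03 to 0.21, ZNF281 -0.09 to 0.07, ZNF330 -0.07 to 0.19, ZNF382 -0.11 to 0.88, ZNF574 -0.63 to 0.20, ZNF638 -0.13 to 0.18, ZNF639 -0.03 to 0.50 and ZNF644 -0.24 to 0.06.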
